A study of Mus musculus with 28 samples.

Results

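The effect of a single copy of a mutant TDP-43 allele on the aged mouse cortex was measured by comparing 10 heterozygous libraries (HET, Q331K/+) with 8 wild-type libraries (WT, +/+), taken by the genotype in their titles from 28 polyA RNA-sequencing libraries. The other 10 libraries were homozygous (HOM, Q331K/Q331K) and are given beside them where they place a HET value. All were frontal cortex from mice of the C57BL/6 background aged 20 months, and no treatment was named. The HET and HOM mice were knock-ins, with the substitution in the endogenous Tardbp gene under its own promoter. Every gene that passed a filter on low counts entered the comparison, which left 16110 of 25900. The labels give neither sex, litter nor batch. They number the libraries without naming the animals behind them, so that each p-value reflects library-to-library spread, some of which may be technical.

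TDP-43 is a nuclear RNA-binding protein of the hnRNP class that binds UG-rich stretches of RNA, represses the splicing of cryptic exons and sustains the level of transcripts with very long introns. It holds its own mRNA in check by binding it. Substitutions in its glycine-rich C-terminal region, Q331K among them, cause amyotrophic lateral sclerosis (ALS), with frontotemporal dementia in some families, and both are inherited as dominant traits, so that patients carry 1 mutant allele.

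Gene counts sum both alleles and cannot show how much of the HET transcript came from the edited copy. Levels below are CPM, counts per 1000000 counts of a library, with TMM-scaled library sizes, and log2 differences, standard errors (SE) and adjusted p-values are from the edgeR quasi-likelihood test over all 16110 genes. Tardbp (chromosome 4, 148612382 to 148627019, minus strand) ran from 297 to 338 CPM in WT with a median of 321, and from 313 to 358 in HET with a median of 327. The groups overlapped almost wholly, with 1 HET library above the highest WT library. The log2 difference of HET over WT was 0.03 (SE 0.0315, adjusted p = 0.734), with a 95% interval from -0.03 to 0.10. HOM ran from 322 to 381 CPM, median 348. On the opposite strand, exons of Masp2 overlap Tardbp, which leaves its count uncertain to that extent.

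The libraries were deep and alike. Total counts ran from 46.5 M (M for 1000000) to 64.1 M in WT (median 53 M) and from 45 M to 74.9 M in HET (median 55.8 M). Total count, genes detected, the share of mitochondrially encoded transcripts and the share of the 10 most abundant genes differed by less than their spread (exact permutation test over 43758 splits, two-sided, adjusted p = 0.739 for each of 4 measures). Markers of cortical excitatory neurons were abundant, with Slc17a7 at 1098 to 1292 CPM and Camk2a at 3615 to 4288 over the 18 libraries. The cerebellar marker Gabra6 reached at most 0.247 CPM and Tph2, a marker of raphe neurons, stood at 0.493 to 1.22 CPM. Markers of some other cells did vary. The summed level of 18 markers of striatal neurons was 1147 CPM in WT 3 and 943 in WT 4. In the other 16 libraries it was 393 to 662 CPM. Sums for meningeal fibroblasts ran from 198 CPM in WT 6 to 393 in HET 4. Those for oligodendrocytes ran from 4412 CPM in HET 7 to 7757 in WT 8.

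In mice with a single Q331K allele, fitted levels lay close to wild type for most genes. No gene passed an adjusted p of 0.05 in edgeR (0% of 16110), while 1547 genes (9.6%) had an unadjusted p under 0.05, of which 797 were higher in HET (4.95% of those tested) and 750 lower (4.66%). DESeq2, run on the same counts, called 12 genes (0.0745%) and limma voom with quality weights called 14 (0.0869%). In 8 genes (0.0497%) the 2 groups did not overlap at all: 3 had every HET library above every WT library (0.0186%) and 5 had every HET library below (0.031%). The intervals bound what could have been missed. For 14893 genes (92.4%) the 95% interval lay within 1.5-fold either way, and for 11731 (72.8%) it lay within 1.2-fold. The median SE was 0.0493 on the log2 scale, and the quartiles of the fitted log2 differences were -0.04 and 0.05. Differences beyond 1.5-fold were fitted for 113 genes and beyond 2-fold for 21.

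Of the genes lower in HET, Gid4 and Rragd had the smallest p. Gid4 (listed as 4933439F18Rik, chromosome 11, 60417145 to 60450927) encodes the substrate receptor of the CTLH ubiquitin ligase, which recognises proteins by an N-terminal proline. It ran from 77.3 to 83.7 CPM in WT (median 78.5), from 67.4 to 76.0 in HET (median 72.2) and from 55.4 to 61.8 in HOM (median 59.4). The 3 genotypes formed 3 separate bands. Its log2 difference of HET over WT was -0.14 (SE 0.0245, edgeR adjusted p = 0.0634), and DESeq2 and limma voom called it at adjusted p-values of 5.25e-05 and 0.00262. Rragd (chromosome 4, 32983037 to 33022180), a Rag GTPase that brings the growth kinase complex mTORC1 to the lysosome when amino acids are present, ran from 161 to 177 CPM in WT (median 169) and from 137 to 160 in HET (median 147). Here too all 10 HET libraries lay below the lowest WT library. HOM ran from 126 to 156 CPM and overlapped HET. The log2 difference of HET over WT was -0.18 (SE 0.0335, edgeR adjusted p = 0.0634, DESeq2 0.00102, limma voom 0.00262).

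Spop (chromosome 11, 95414080 to 95493406), the adaptor that brings substrates to the cullin-3 ubiquitin ligase, ran from 194 to 208 CPM in WT (median 202) and from 183 to 194 in HET (median 187), with 9 of 10 HET libraries below the lowest WT library. The HOM libraries stood lower again, at 164 to 179 CPM. The shift of HET was small, at a log2 difference of -0.10 (SE 0.0204), and its edgeR adjusted p was 0.119 (DESeq2 0.000594, limma voom 0.0144). Olfr316, an olfactory receptor gene by name, was scarce, at 1.80 to 2.64 CPM in WT (median 2.20) and 1.09 to 1.79 in HET (median 1.49). The bands of WT and HET did not touch, and this was the largest difference among the 12 genes of this direction, at -0.61 on the log2 scale (SE 0.121, edgeR adjusted p = 0.113, DESeq2 0.00462, limma voom 0.00588). Receptor genes of this family resemble each other, and how reads shared by several were counted is not given in the sources used here.

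Among zinc-finger genes, Zfp60 (chromosome 7, 27731389 to 27753702) ran from 46.2 to 52.2 CPM in WT (median 48.0) and from 41.6 to 46.1 in HET (median 44.7). Its neighbour Zfp607b (listed as C030039L03Rik, 27689340 to 27706484) ran from 20.4 to 22.1 CPM in WT (median 21.6) and from 18.4 to 20.4 in HET (median 19.4). In both genes every HET library lay below every WT library. The log2 differences were -0.14 (SE 0.0303) and -0.12 (SE 0.0282), each with an edgeR adjusted p of 0.171. DESeq2 called both (adjusted p = 0.015 and 0.0317), as did limma voom (0.043 and 0.0246). Zinc-finger genes of 1 cluster can share sequence, and their counts carry the same doubt as those of the receptor genes. Sp4, a transcription factor of the Sp family that is enriched in neurons, was lower in HET by -0.13 (SE 0.0324, edgeR adjusted p = 0.245), with 7 HET libraries below the lowest WT library.

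The other 5 genes of this direction act in metabolism, peptide breakdown and adhesion. Sirt1, an NAD-dependent deacetylase, ran from 21.5 to 22.9 CPM in WT and from 18.4 to 21.8 in HET, with 9 HET libraries below the lowest WT library and a log2 difference of -0.16 (SE 0.0427). Mttp, which loads lipid onto lipoproteins, ran from 11.9 to 14.5 CPM in WT and from 9.68 to 12.9 in HET (log2 difference -0.24, SE 0.0649), and also had 9 HET libraries below. Limma voom called Mttp (adjusted p = 0.0303) and DESeq2 did not (0.143). Exons of Mttp overlap those of Trmt10a on the other strand. Gstm7, a glutathione S-transferase, differed by -0.27 (SE 0.0665) and Pcdh11x, an X-linked protocadherin, by -0.22 (SE 0.0574). Mme encodes neprilysin, a peptidase that degrades amyloid-beta among other peptides. It ran from 5.31 to 11.9 CPM in WT (median 6.40) and from 3.94 to 5.81 in HET (median 4.88), and 7 HET libraries lay below the lowest WT library. Its log2 difference was -0.56 (SE 0.144), and -0.33 without WT 3 and WT 4, the libraries with the most striatal RNA. The edgeR adjusted p of these 5 genes ran from 0.252 to 0.342.

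**Figure D1:**
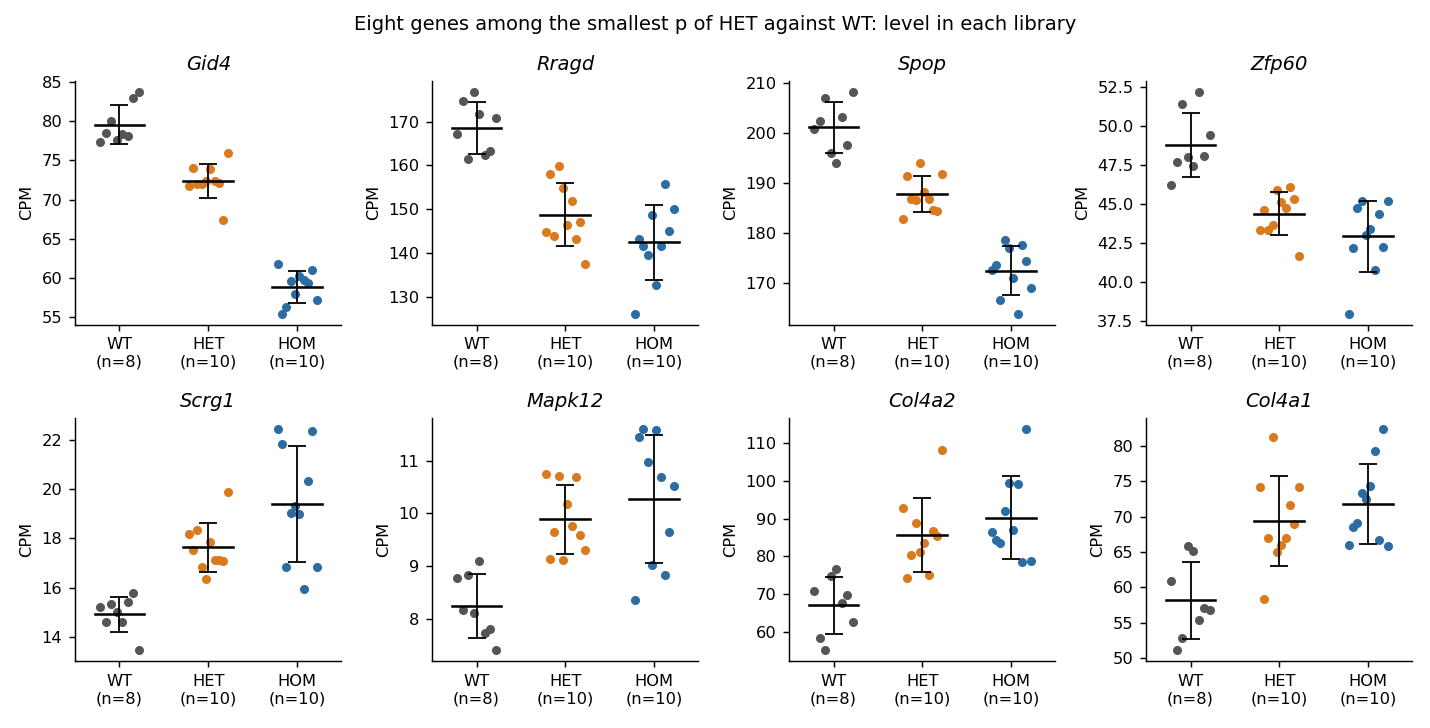
Level in CPM (vertical axes, which do not start at 0) of 8 genes in each WT, HET and HOM library; points are libraries, and bars give the mean and SD of a group. Gid4 and Spop step down from WT through HET to HOM, Rragd and Zfp60 overlap in HET and HOM, and the HET libraries of Scrg1 and Mapk12 all lie above WT.

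In the other direction the pair of collagen IV genes stood out. Col4a1 and Col4a2 encode the chains of the collagen that forms the basement membrane of blood vessels, and 2 chains of the one join 1 of the other in each molecule. Their starts lie 21 bases apart on chromosome 8 and they are read away from each other, Col4a1 on the minus strand (11198423 to 11312826) and Col4a2 on the plus strand (11312805 to 11449287). Because both were higher, the windows from 250 bases before to 50 after each start are shown, from RefSeq (GRCm38.p6), 5′ to 3′ along each gene's own strand at chr8:11312777-11313076 and chr8:11312555-11312854, with matches to CCAAT and GGGCGG on either strand in capitals.
Col4a1: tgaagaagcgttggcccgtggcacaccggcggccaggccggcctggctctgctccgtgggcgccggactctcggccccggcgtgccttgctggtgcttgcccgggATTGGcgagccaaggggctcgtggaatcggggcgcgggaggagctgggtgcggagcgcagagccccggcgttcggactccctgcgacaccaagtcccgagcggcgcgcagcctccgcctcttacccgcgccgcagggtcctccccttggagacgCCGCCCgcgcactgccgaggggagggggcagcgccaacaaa
Col4a2: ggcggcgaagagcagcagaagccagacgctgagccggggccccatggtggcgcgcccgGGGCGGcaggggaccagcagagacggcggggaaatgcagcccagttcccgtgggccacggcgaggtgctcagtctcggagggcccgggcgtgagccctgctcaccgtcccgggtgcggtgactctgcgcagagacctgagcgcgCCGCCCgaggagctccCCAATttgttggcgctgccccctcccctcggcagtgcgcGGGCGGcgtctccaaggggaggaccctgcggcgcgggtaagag
The 2 windows share 78 bases. Each holds 1 CCAAT, and they hold 1 and 3 copies of GGGCGG. The copy of Col4a1 lies in the shared bases and is the same site as the last copy of Col4a2, read on the other strand. Neither holds TATAAA. Of 32851 promoter windows of this length, 37.4% held CCAAT, 35.7% GGGCGG and 13.6% TATAAA, so that the first 2 motifs are common. A match describes the letters and not a site in use.

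Col4a2 ran from 55.2 to 76.7 CPM in WT (median 68.8) and from 74.3 to 108 in HET (median 84.5). Col4a1 ran from 51.1 to 65.9 CPM in WT (median 56.9) and from 58.3 to 81.3 in HET (median 68.0). For each gene 8 of 10 HET libraries exceeded all WT libraries. The log2 differences were 0.35 (SE 0.0754) for Col4a2 and 0.25 (SE 0.0566) for Col4a1, with edgeR adjusted p-values of 0.156 and 0.171. DESeq2 called both (0.00772 and 0.0277), as did limma voom (0.0191 and 0.0246). Exons of the 2 genes overlap on opposite strands, and without a stated strand setting reads from there cannot be assigned.

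Scrg1, first known for its raised level in prion-infected brain, ran from 13.5 to 15.8 CPM in WT (median 15.1) and from 16.3 to 19.9 in HET (median 17.3). Mapk12, which encodes the p38-gamma stress kinase, ran from 7.40 to 9.10 CPM in WT (median 8.14) and from 9.11 to 10.8 in HET (median 9.70). In both genes each of the 10 HET libraries exceeded every WT library. The log2 differences were 0.24 (SE 0.0555) and 0.26 (SE 0.0609), with an edgeR adjusted p of 0.183 for each, and DESeq2 and limma voom called both (adjusted p from 0.0303 to 0.039). St6galnac2, a sialyltransferase, ran from 3.88 to 5.24 CPM in WT and from 4.65 to 6.30 in HET (log2 difference 0.29, SE 0.0631, edgeR adjusted p = 0.15). It too was called by both other tools, with 8 HET libraries above the highest WT library.

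Several genes higher in HET act on sphingolipids, vitamins or vessels. Degs2 makes the hydroxylated ceramide phytoceramide, and differed by 0.36 (SE 0.0844). It was called by limma voom (adjusted p = 0.0373) and not by DESeq2 (0.0735). Smpd2, a neutral sphingomyelinase that releases ceramide, differed by 0.14 (SE 0.0355). Exons of these 2 overlap Evl and Mical1 on the other strand. Slc19a3, the thiamine transporter, differed by 0.33 (SE 0.0753) and was called by DESeq2 (adjusted p = 0.0317) and not by limma voom (0.0657). Pear1, a receptor of platelets and endothelium, differed by 0.33 (SE 0.0821). Tanc1, a scaffold of the postsynaptic density, differed by 0.31 (SE 0.0776) and 2900052L18Rik by 0.33 (SE 0.0783). Rlbp1, a retinoid-binding protein placed on the list of astrocyte markers below, differed by 0.19 (SE 0.0474). The edgeR adjusted p of these 7 ran from 0.171 to 0.283. In Rlbp1 the highest WT library, WT 4 at 24.4 CPM, lay above all but 1 HET library, and without it the edgeR adjusted p was 0.0178 with a log2 difference of 0.24.

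Restricting the edgeR fit to the 18 libraries called 4 genes, Gid4, Rragd, Scrg1 and Olfr316, each at an adjusted p of 0.0233. Leaving out a single library gave from 0 to 3 calls, with 3 without HET 2, 2 without WT 4 and 1 without WT 1 or without HET 10.

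**Figure D2:**
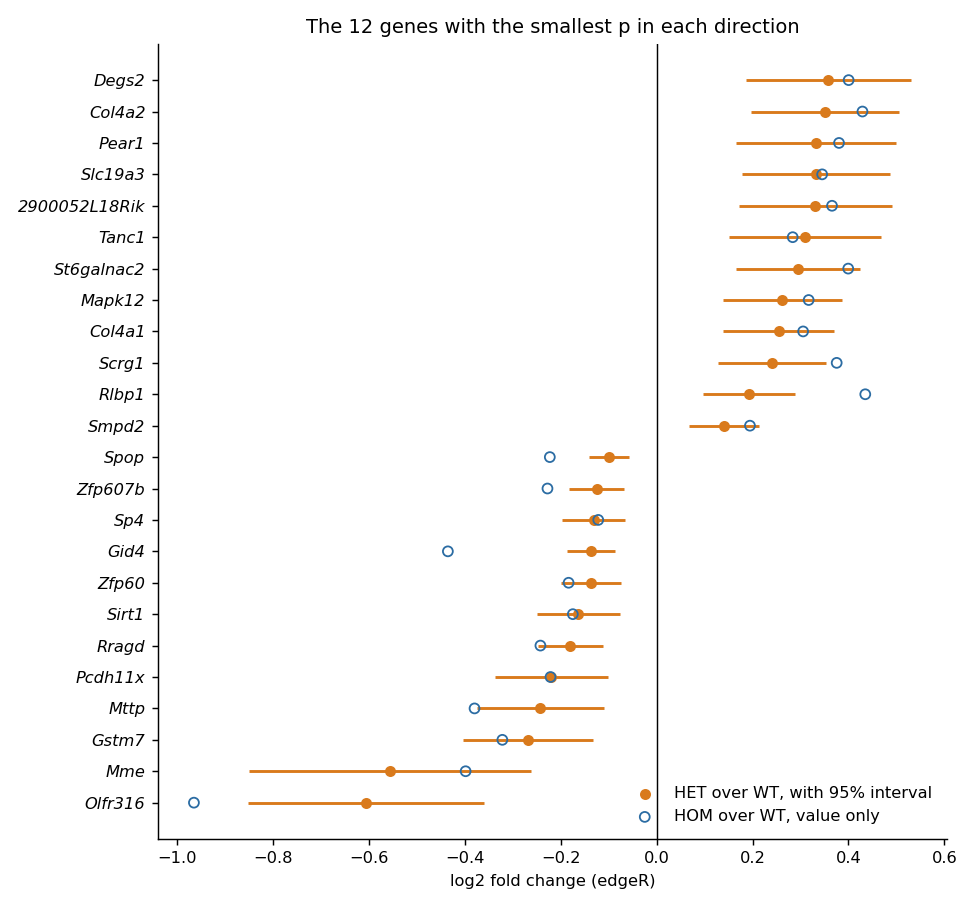
Log2 fold change (horizontal axis) of the 12 genes of smallest p per direction; filled points give HET over WT with the 95% interval and open circles HOM over WT. The HET differences run from -0.61 for Olfr316 to 0.36 for Degs2.

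The HOM values, which are measured against the same 8 WT libraries, place the HET level between or beside the other genotypes. HOM stood clearly beyond HET in 3 of the 24 named genes, by the test of HOM against HET. Gid4 differed by -0.30 between HOM and HET (edgeR adjusted p = 1.17e-09), against -0.14 between HET and WT. Spop differed by -0.12 (adjusted p = 0.00236), against -0.10 between HET and WT. Rlbp1 differed by 0.24 (adjusted p = 0.023), against 0.19. D2hgdh, a mitochondrial enzyme that oxidises D-2-hydroxyglutarate and was named from a metabolic list, ran from 7.09 to 8.69 CPM in WT, 7.77 to 9.22 in HET and 9.73 to 11.4 in HOM. Its step from HET to HOM was 0.31 (adjusted p = 2.75e-05), against 0.16 (SE 0.0409, adjusted p = 0.284) from WT to HET. The other 21 did not pass the test of HOM against HET. Zfp607b was near its first step again, at -0.10 between HOM and HET (SE 0.0269, adjusted p = 0.171) against -0.12 between HET and WT, and Olfr316 differed by -0.36 (SE 0.121, adjusted p = 0.385) against -0.61. HOM minus HET was -0.06 for Rragd, 0.05 for Col4a1, 0.08 for Col4a2 and 0.05 for Mapk12, with adjusted p-values from 0.601 to 0.85. Pcdh11x, Sirt1 and Sp4 differed by 0.01 or less between HET and HOM.

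Whether the HET level departs from the midpoint of WT and HOM was tested directly. No gene passed the adjusted threshold in edgeR, and 456 (2.83%) had an unadjusted p under 0.05. DESeq2 and limma voom also called 0. Gid4 lay 0.08 above the midpoint on the log2 scale (SE 0.0204, unadjusted p = 0.0004, adjusted p = 0.9999). A missed threshold does not place the other genes at the midpoint.

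Markers of the cells of the vessel wall leaned higher in HET. In bulk tissue, more cells of a type and more RNA per cell cannot be told apart. Of 17 markers of mural cells, the pericytes and smooth muscle cells around vessels, 7 were higher at an unadjusted p under 0.05 and 0 lower (41.2%, against 4.95% of all genes), and the median log2 difference was 0.16 against 0.00 over all genes. Acta2, smooth muscle actin, differed by 0.47 (p = 0.0114), Tagln by 0.46 (p = 0.0269), Myl9 by 0.24 (p = 0.00404) and Rgs5, a pericyte marker, by 0.13 (p = 0.0079). Other members were nearly flat, with Pdgfrb at 0.01, Atp13a5 at 0.01 and Kcnj8 at 0.04. Over the list 16 markers were positive and 1 negative, Zic1 at -0.005. The summed level of the list ran from 268 to 312 CPM in WT (median 281) and from 278 to 360 in HET (median 307), with 4 HET libraries above the highest WT library. Over the alternative settings 5 to 9 markers were higher and the median stayed between 0.12 and 0.18. Without WT 3 and WT 4 it was 0.17, again with 7 markers higher.

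All 20 markers of endothelial cells had a positive log2 difference, with a median of 0.09 (0.06 without HET 7), and 3 had an unadjusted p under 0.05 (15%, against 4.95%): Slc2a1, the glucose transporter of the blood-brain barrier, at 0.24 (p = 0.0309), Cdh5 at 0.11 (p = 0.0358) and Pecam1 at 0.11 (p = 0.0471). Their sum ran from 875 to 991 CPM in WT and from 911 to 1112 in HET, with 4 HET libraries above WT. Markers of meningeal fibroblasts, the cells of the membranes on the brain's surface, were higher too. All 20 were positive with a median of 0.40, and 6 had an unadjusted p under 0.05 (30%, against 4.95%), among them Igfbp2 at 0.30 (p = 0.00631), Aldh1a2 at 0.64 (p = 0.0208) and Slc6a13 at 0.55 (p = 0.0121). Another of the 6, Vtn, also stands on the mural list. Col1a1, the defining collagen of fibroblasts, differed by 0.41 (SE 0.224, p = 0.0796). The summed level was 198 to 312 CPM in WT and 243 to 393 in HET, highest in HET 4. The median was 0.27 without HET 4, with 3 markers higher, and 3 were also left without WT 6. It was 0.04 with 2 surrogate variables in the model, with 1 marker higher, and -0.0031 with 2 higher when scores of meningeal, striatal and choroid plexus markers were covariates, a model that takes out the meningeal score itself. Under both, the mural median stayed within its range above. With the marker scores as covariates Col4a1 differed by 0.25 and Col4a2 by 0.35, each at an edgeR adjusted p of 0.482.

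Red blood cell markers, which would follow blood left in vessels, were of similar level in both groups: their sum ran from 277 to 378 CPM in WT and from 297 to 357 in HET, and 0 of 6 had an unadjusted p under 0.05.

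**Figure D3:**
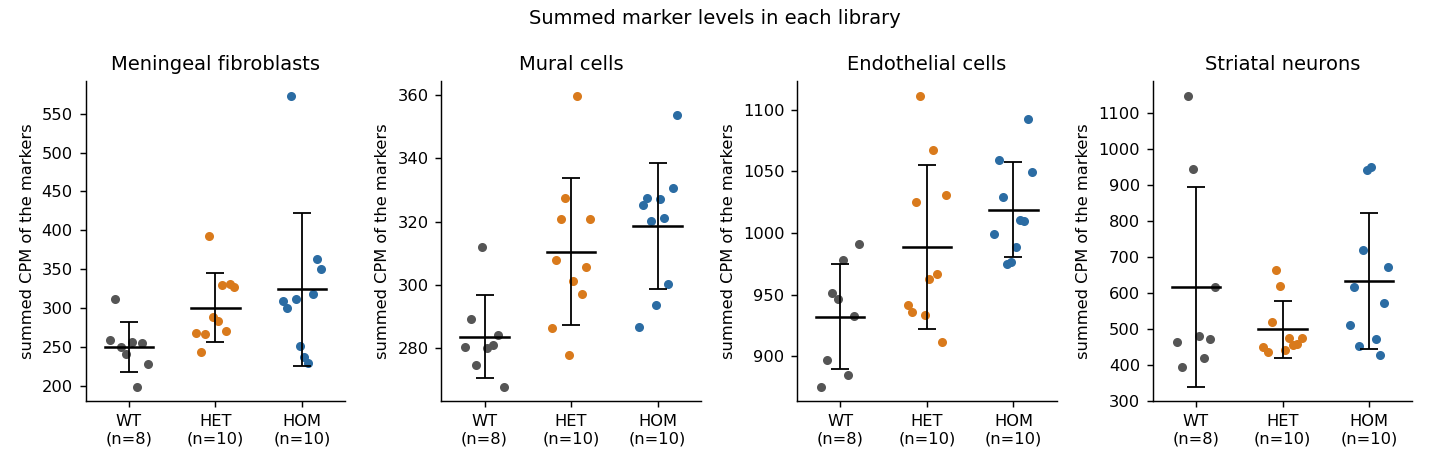
Summed CPM of marker genes (vertical axes, which do not start at 0) in each library for 4 cell classes; points are libraries, and bars give the mean and SD. Mural sums reach 312 CPM in WT and 360 in HET, while the striatal panel shows WT 3 and WT 4 at 1147 and 943 CPM above the other WT libraries.

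Markers of striatal neurons went the other way, and their difference rested on 2 WT libraries. All 18 were negative with a median of -0.57, and 7 had an unadjusted p under 0.05 (38.9%, against 4.66% of all genes), such as Drd1 at -0.48 (p = 0.0401) and Drd2 at -1.07 (p = 0.0489), the dopamine receptors of the striatal projection neurons. Drd2 ran from 1.21 to 14.4 CPM in WT (median 2.39) and from 0.995 to 4.37 in HET (median 1.65). Without WT 3 and WT 4 the median of the list was 0.02 and 0 markers had an unadjusted p under 0.05 in the lower direction. Genes that striatum and cortex share followed in part. Tac1, a tachykinin gene, differed by -0.53 (p = 0.0064), and by -0.18 without those libraries. Foxp2, a transcription factor of deep-layer and striatal neurons, differed by -0.39 (p = 0.00329) and by -0.33 without them.

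Among glia, astrocyte genes leaned higher. Of 23 markers 5 were higher at an unadjusted p under 0.05 and 0 lower (21.7% against 4.95%), with a median of 0.04 (0.06 without HET 9). The count was 4 to 7 with single libraries left out, 3 with 2 surrogate variables and 2 with marker scores as covariates. Besides Rlbp1, already named among the genes of smallest p, these were Cbs, which makes cystathionine, at 0.27 (p = 0.00116), the gap junction gene Gja1 at 0.11 (p = 0.00336), Fgfr3 at 0.14 (p = 0.00906) and the water channel Aqp4 at 0.13 (p = 0.0391). Over the list 18 markers were positive and 5 negative, among the latter Sox9 at -0.12 and Slc4a4 at -0.08. Other widely used markers were flat, with Slc1a2 at -0.01, Slc1a3 at 0.01 and Aldh1l1 at 0.02. Aqp4 ran from 98.5 to 127 CPM in WT and from 111 to 132 in HET. Its ranges overlapped save for 1 HET library. Of 24 microglial markers only Tmem119 had an unadjusted p under 0.05, at 0.18 (p = 0.012), and the list median was 0.05 (0.03 without HET 3). Csf1r, the receptor that microglia need to survive, differed by 0.07 (p = 0.0882), and its exons overlap Hmgxb3 on the other strand. Of 24 oligodendrocyte markers 21 were negative with a median of -0.12, yet 0 had an unadjusted p under 0.05. The median rested largely on WT 8, the WT library with the highest level of these genes, and was -0.03 without it. It was 0.01 with marker scores as covariates. Markers of oligodendrocyte precursors had a median of 0.06, with Pdgfra at 0.10 (p = 0.0219), and the median was 0.03 without HET 10.

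Neuronal lists were mixed; the shares over all genes were 4.95% higher and 4.66% lower. Pvalb, the calcium-binding protein of fast-spiking interneurons, ran from 61.2 to 80.2 CPM in WT and from 53.4 to 77.2 in HET, a log2 difference of -0.03 (SE 0.0696, p = 0.704). In HOM it ran from 47.5 to 69.6 CPM. Of 28 markers of other GABA neurons 5 were lower and 2 higher at an unadjusted p under 0.05, and 1 and 0 without WT 3 and WT 4. Genes that define GABA neurons in general were among the lower ones, with Gad2 at -0.12 (p = 0.0163), Gad1 at -0.09 (p = 0.0229) and the vesicular transporter Slc32a1 at -0.12 (p = 0.0191). Striatal neurons also express these 3, and without WT 3 and WT 4 Gad2 differed by -0.07. The interneuron peptides Sst and Npy differed by 0.10 (p = 0.0471) and 0.11 (p = 0.0458). Deep-layer markers split, with 4 of 22 lower and 2 higher, among them Tshz2 at -0.16 (p = 0.00358) and Qrfpr at 0.41 (p = 0.0116). Of 34 genes of the synapse 6 were higher and 0 lower (17.6%, against 4.95%), all by small amounts: Bsn, a scaffold of the presynaptic active zone, differed by 0.10 (p = 0.00347), Unc13a, which primes vesicles, by 0.09 (p = 0.0109) and Shank1 by 0.12 (p = 0.0385). Exons of Unc13a overlap Colgalt1 on the other strand. Over the synapse list the median was 0.01, with 22 genes positive and 12 negative. The count of higher genes was 2 without WT 2, and 2 without WT 3 and WT 4.

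**Figure D4:**
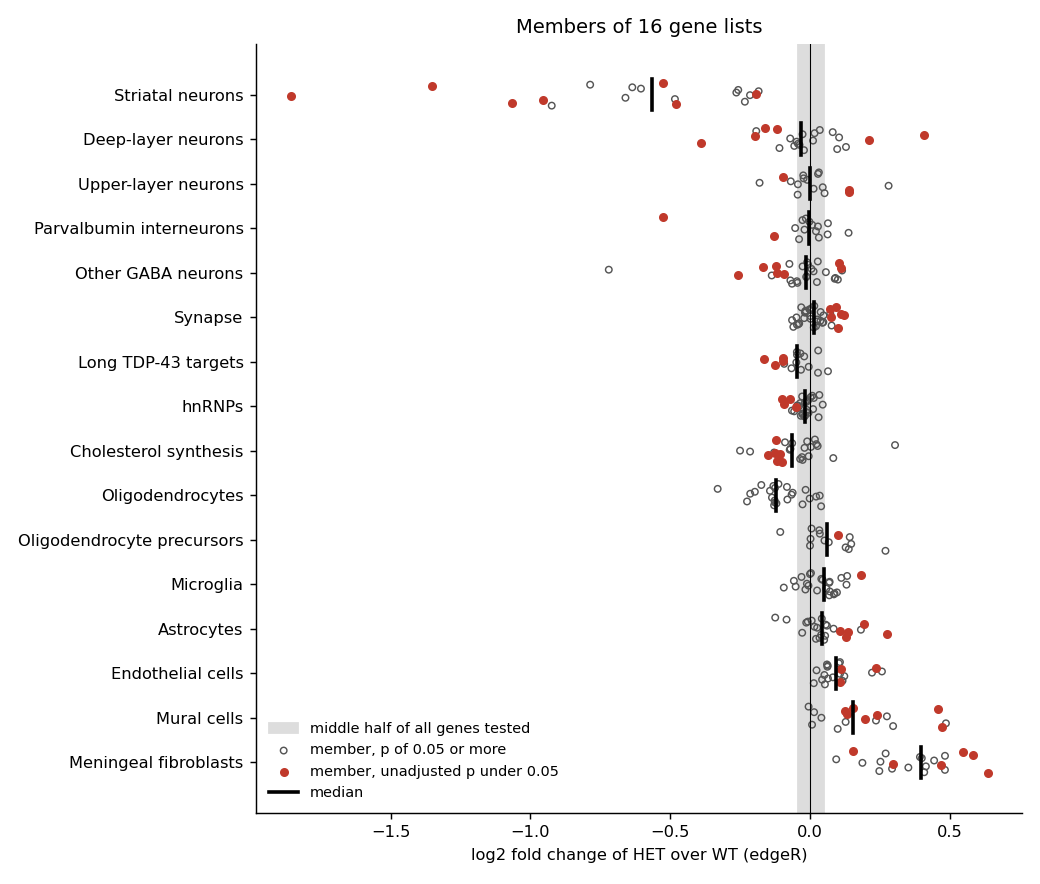
Log2 fold change of HET over WT (horizontal axis) of the tested members of 16 gene lists; each point is a gene, red where its unadjusted p was under 0.05, black bars are list medians, and the grey band spans the lower to upper quartile of all genes tested. List medians run from -0.57 for striatal neurons to 0.40 for meningeal fibroblasts.

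Genes tied to TDP-43 itself differed by small amounts. Of 16 long neuronal targets, whose transcripts fall when TDP-43 is removed, 4 were lower and 0 higher at an unadjusted p under 0.05 (25%, against 4.66% of all genes), with a median of -0.05. All 16 span 500 kb or more, and of the 194 tested genes of that length 18.6% were lower, with a median of -0.05. Lsamp, a cell adhesion gene, ran from 278 to 315 CPM in WT (median 305) and from 262 to 297 in HET (median 286), a log2 difference of -0.10 (p = 0.00202). Grik2, a kainate receptor, differed by -0.12 (p = 0.00917), Nlgn1 by -0.10 (p = 0.0347) and Nkain2 by -0.16 (p = 0.037). Of 19 genes whose splicing TDP-43 is known to control in human or mouse, 2 were higher (10.5%, against 4.95% of all genes) and 0 lower. The 2 were Tmem2 at 0.11 and Unc13a at 0.09, and the median of the list was -0.01. Gene counts do not show splicing. Of 31 hnRNP genes 4 were lower (12.9%, against 4.66%), by -0.05 to -0.10: Hnrnpr, Ptbp2, Hnrnpk and Ptbp1. The count was 1 without HET 1, 2 with 2 surrogate variables and 1 with marker scores as covariates. The ALS and frontotemporal dementia genes had 3 lower and 2 higher of 35, near the background. C9orf72 (listed as 3110043O21Rik) ran from 26.9 to 31.2 CPM in WT (median 28.1) and from 24.8 to 27.7 in HET (median 26.7), with 6 HET libraries below the lowest WT library and a log2 difference of -0.11 (SE 0.0316, p = 0.00158). Grn, the progranulin gene, ran from 40.4 to 45.6 CPM in WT (median 43.6) and from 42.5 to 49.9 in HET (median 47.2), with 6 above the highest WT library and a difference of 0.11 (SE 0.0378, p = 0.00868). Exons of Grn overlap Fam171a2 on the other strand.

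Other members of the complexes to which the leading genes belong mostly lay close to wild type, read against 4.95% of all genes higher and 4.66% lower. Of 13 genes of the CTLH ligase, Gid4 and the scaffold subunit Armc8 (-0.06, p = 0.0377) had an unadjusted p under 0.05, and the median of the list was -0.01. Of 29 genes of cullin-3 ligases, 3 were lower, Spop, Klhl24 (-0.07, p = 0.0168) and Kbtbd2 (-0.07, p = 0.0408), and 2 higher. Of 35 genes of Rag and mTORC1 signalling, 3 were lower and 2 higher. Beside Rragd these included the leucine sensor family member Sesn3 at -0.13 (p = 0.00202) and Castor1, the arginine sensor (listed as Gatsl3), at 0.31 (p = 0.0389). The other Rag GTPases Rraga, Rragb and Rragc differed by -0.06, -0.07 and -0.05 (p from 0.0667 to 0.0849). Of 25 genes of cholesterol synthesis and uptake 6 were lower and 0 higher (24%, against 4.66%), with a median of -0.06 (-0.04 without WT 6), including the synthase gene Hmgcs1 at -0.11 (p = 0.0295). Their count ran from 1 without WT 2 to 10 without WT 5, and was 0 with 2 surrogate variables. Among 45 genes of oxidative phosphorylation, 17 heat-shock genes and 32 interferon genes 0 had an unadjusted p under 0.05 by edgeR, and lysosomal and core autophagy genes had 2 of 40 and 1 of 32.

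Very long genes leaned lower in HET. Of 194 tested genes of 500 kb or more from start to end, 36 were lower at an unadjusted p under 0.05 (18.6%, against 4.66% of all genes) and 2 higher (1.03%, against 4.95%). Their median log2 difference was -0.05, and 140 of 194 were negative. Of 4469 genes under 10 kb, 249 were higher (5.57%, near the share over all genes) and 111 lower (2.48%), with a median of 0.01. Over the alternative settings 178 to 354 of them were higher and 90 to 232 lower. Relative to the WT mean, the median over the long genes ran from -0.04 to 0.04 in the WT libraries, from -0.09 to 0.01 in HET and from -0.10 to -0.03 in HOM. In HET 5 libraries were lower than any in WT, and the others lay within the WT range. Besides Pcdh11x, Lsamp and Foxp2, long genes lower in HET included the GABA receptor gene Gabrg3 at -0.17 (p = 0.00134), Csmd3 at -0.20 (p = 0.00607), and Erbb4, the neuregulin receptor of interneurons and itself an ALS gene, at -0.13 (p = 0.00653). Erbb4 ran from 93.8 to 105 CPM in WT, from 81.5 to 99.2 in HET and from 70.2 to 91.1 in HOM, with 5 HET libraries below the lowest WT library. The count of long genes lower was 27 to 43 over the alternative settings, at its lowest without WT 6, and 37 without WT 3 and WT 4. Their median stayed between -0.05 and -0.03.

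**Figure D5:**
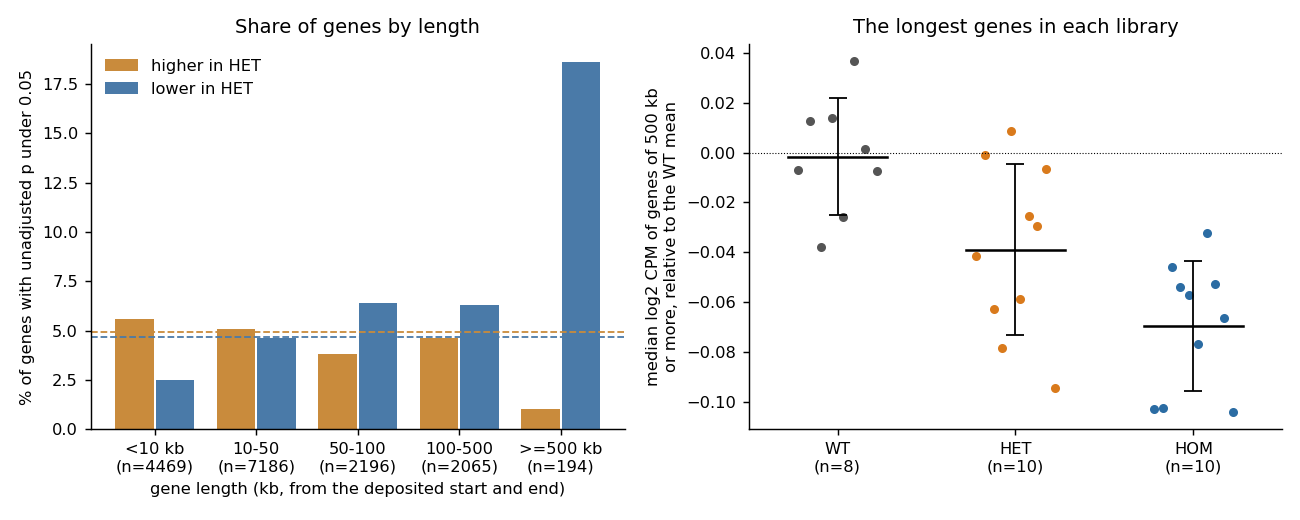
Left, percent of tested genes (vertical axis) with an unadjusted p under 0.05 in HET against WT by gene length, with the shares over all genes as dashed lines. Right, median log2 CPM of the genes of 500 kb or more in each library relative to the WT mean, with mean and SD; the share of genes lower reaches 18.6% in the longest group, and the HET medians run from -0.09 to 0.01.

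Near the edited locus, genes leaned higher by small amounts. Of 229 tested genes within 10 Mb of Tardbp, 15 were higher (6.55%, against 4.95%) and 1 lower (0.437%, against 4.66%), with a median of 0.03. The smallest p belonged to Plch2, a phospholipase C, at 98.4 CPM in WT and 112 in HET on average (log2 difference 0.19, SE 0.0495, adjusted p = 0.342). Disp3 (listed as Ptchd2) differed by 0.24 (SE 0.0736) and the lysosomal ATPase gene Atp13a2 by 0.11 (SE 0.0367). Effects of the allele and of any other sequence difference linked to it cannot be told apart.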

How the data were processed

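PolyA RNA of frontal cortex was sequenced. The table deposited by the authors holds raw counts of reads for each gene and library, not normalised, as whole numbers with unequal totals show. Trim Galore 0.4.3 for trimming, HISAT2 2.0.5 for alignment and the build GRCm38 are named in the submitters' processing notes. How reads were counted, with which annotation and strand setting, is not given in the sources used here. Each title's genotype gave the group. Rows sharing an identifier were summed (25965 rows, 25900 identifiers, 57 of them on several rows).

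Genes passing filterByExpr were scaled by TMM and tested with edgeR 4.0.16 in R 4.3.3 (quasi-likelihood test, robust, two-sided) in a joint fit of the 28 libraries with 1 mean for each genotype, so that the groups share 1 estimate of the spread, and p-values were adjusted by Benjamini-Hochberg at 0.05. The biological coefficient of variation was 8.46%. The 95% intervals came from the same fit. The scripts were tested on simulated counts. Alternatives were DESeq2 1.42.0, its size factors, 2 filters, limma voom (limma 3.58.1), sva 3.50.0, marker scores as covariates, the 18 libraries alone, a replicate block, and each library left out. A fit without WT 3 and WT 4 was chosen after seeing the data.

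Named genes were Tardbp, the 12 with the smallest p in each direction with at least 1 CPM, genes called by both DESeq2 and limma voom, the 2 members of each list with the smallest p, and cell type markers. Some of these genes are not reported here. Other list members and long or neighbouring genes are named after their values were seen, as are Disp3, Plch2 and Atp13a2. The comparison, its members and the 38 gene lists were chosen with earlier results of these data known, and lists are described by counts and medians with no set test. Of 932 list entries 931 matched an identifier. Promoters are from RefSeq (GRCm38.p6), where 22 of 25 leading genes had an entry. Coordinates are GRCm38.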

Additional observations from a re-analysis of the deposited data

Results flagged for a closer look

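A single library stood apart from the rest of its group in 4 of 80 groups checked, where chance alone flags about 1 in 20. Gid4 (4933439F18Rik) stood at 67.4 CPM in HET 9, against 71.7 in the next lowest HET library. Rlbp1 stood at 24.4 CPM in WT 4, against 20.5 in the next highest WT library, and its edgeR adjusted p was 0.0178 without WT 4. Tardbp stood at 358 CPM in HET 10, against 336 in the next highest HET library. Summed red blood cell markers stood at 357 CPM in HET 4, against 318 in the next highest HET library.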

How the results depend on the processing

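The count of genes passing an adjusted p of 0.05, 0 as reported, was 12 by DESeq2, 14 by limma voom, 1 with a filter of 1 CPM in 8 libraries, 4 in a fit of the 18 libraries alone, and 0 to 3 with single libraries left out. The 8 genes whose groups do not overlap became 7 to 17 with single libraries left out and 21 without WT 3 and WT 4. The test against the midpoint gave 0 under each alternative run. The log2 difference of Tardbp stayed between 0.02 and 0.04. Genes with an unadjusted p under 0.05 numbered 1140 with marker scores as covariates to 2311 by limma voom. The replicate numbers do not pair libraries: over 8 same-numbered pairs r ran from -0.05 to 0.18, and 1 WT library correlated best with its own number. With the number as a replicate block edgeR called 0 genes and Tardbp differed by 0.02. Named genes changed sign as follows. Aqp1 was 0.43 by DESeq2, and -1.14 to 0.49 (the latter without WT 2) with single libraries left out. Pvalb was 0.014 with 2 surrogate variables, and -0.056 to 0.0092 with single libraries left out, positive without WT 6 (0.0011) or HET 9. Ttr was -0.10 (without HET 1) to 0.67 with single libraries left out. The cause was not tested. Depth limits the scarcest genes: the 95% interval lay within 1.5-fold for 13621 of 13896 genes of at least 1 CPM (98%), against 14893 of all 16110.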

Other observations

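Beside the collagen IV genes, transcripts of other basement membrane genes leaned higher in HET. Of 25 genes of basement membrane chains and their processing enzymes, a list chosen after values were seen, 6 were higher at an unadjusted p under 0.05 (4.95% of all genes were) and 0 lower, and without Col4a1 and Col4a2 the count was 4 of 23 with a median of 0.12. These 4 were the laminin chains Lamc3 at 0.32 (p = 0.00176), Lamb2 at 0.18 (p = 0.00203) and Lama1 at 0.41 (p = 0.0144), and perlecan, Hspg2, at 0.21 (p = 0.00308). Lama1 and Lamc3 were scarce, at 2.26 and 4.49 CPM on average in WT. Sparc, a collagen-binding protein, differed by -0.07 (p = 0.21).

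Zfp60 and Zfp607b lie in a run of zinc-finger genes on chromosome 7. The next 5 tested zinc-finger genes after Zfp60 were also negative, at -0.13 for Zfp626, -0.16 for Zfp59, -0.15 for Zfp607a (listed as Zfp607), -0.14 for Zfp974 (listed as 1700049G17Rik, p = 0.0109) and -0.04 for Zfp780b. Apart from Zfp974 their unadjusted p ran from 0.0614 to 0.354, and Zfp626, Zfp59 and Zfp607a were scarce, at 0.928 to 3.09 CPM on average in WT. The entry after them, Zfp850, was positive at 0.11 (0.347 CPM in WT), and another entry for Zfp850 (listed as AC158220.1) stood at -0.11. Over all 58 tested genes within 1 Mb of Zfp60, 36 were positive and 22 negative, with a median of 0.02. At an unadjusted p under 0.05, 6 were higher and 4 lower, Zfp60 and Zfp607b among the lower (shares over all genes 4.95% and 4.66%).

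Coro2b, an actin-binding coronin, was the third gene with every HET library above every WT library, at 159 CPM in WT and 170 in HET on average (log2 difference 0.10, unadjusted p = 0.023, edgeR adjusted p = 0.461). St8sia2, which adds polysialic acid to a neuronal adhesion molecule, had the smallest p against the midpoint, with means of 2.68 CPM in WT, 1.97 in HET and 2.71 in HOM (log2 difference from the midpoint -0.46, SE 0.112, edgeR adjusted p = 0.9999).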
